A study of Mus musculus with 28 samples.

Results

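Kcnk9, Peg13, Trappc9 and Grb10 are imprinted genes of the mouse, that is, genes whose expression can depend on the parent from which a copy was inherited. The 4 genes, of 49943 annotated on assembled chromosomes, were selected on Smchd1 summits listed near Kcnk9 and Grb10 in earlier results of these data, with Trappc9 and Peg13 added as the neighbours of Kcnk9. The presence and score of those Smchd1 summits is therefore a description of the choice. All summits inside a gene or within 50 kb of either annotated end were taken from 11 lists of peak summits. The lists came from neural stem cells derived from male E14.5 brain on a C57BL/6 x FVB/N background, either wild type for Smchd1 or Smchd1 MommeD1/MommeD1, a null genotype. Smchd1, H3K4me3 and H3K27me3 were immunoprecipitated in 2 libraries per genotype, and methylated DNA was captured on a methyl-CpG binding domain protein (MBD) in 3 per genotype. Ctcf was immunoprecipitated in 2 libraries per group from null cells, from wild-type cells left untransduced and from wild-type cells given a non-silencing shRNA. The control in calling Ctcf summits was Ctcf ChIP in wild-type cells given a Ctcf shRNA, with 1 library for each of 2 hairpins. Smchd1 ChIP in null cells was the control for Smchd1, and whole cell extract of the same genotype for the histone marks and MBD. The labels do not say whether the libraries of a group came from separate embryos or cultures.

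Imprinted genes usually lie in clusters around a control region whose DNA is methylated on one parental copy, while the other copy carries active marks such as H3K4me3. The Peg13 domain is such a cluster. Peg13 is a noncoding RNA made from the paternal copy within an intron of Trappc9, a subunit gene of a vesicle tethering complex, and Kcnk9, a two-pore potassium channel gene, is expressed from the maternal copy in brain. Grb10 encodes an adaptor protein that restrains insulin and growth factor signalling, and uses the maternal copy in most tissues but the paternal copy in neurons, from different promoters. Smchd1 is a noncanonical structural maintenance of chromosomes protein needed for X inactivation and for the silent copy of some imprinted genes. Ctcf binds insulators and several imprinting control regions, where methylation can block it. None of the lists separates the parental copies.

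Each list was called on the pooled libraries of its group, so a summit is listed or not listed, with no replicate error and no test between genotypes. The score is the −log10 significance (p or q, which is not stated) that the authors' peak caller gave each summit, and it is used only to rank summits within 1 list. Lists differed greatly in length, from 77 summits (H3K27me3, null) to 156188 (the MBD list named WT), and their read depth is unknown. The genotype of the MBD lists is contradictory in the labels, so they are called by their own names, WT and D1. H3K4me3 lay within 2 kb of an end of 9 of 10 neural stem cell marker genes in wild-type cells and 8 of 10 in null cells, Sox2 and Nes among the wild-type ones. It also marked 5 of 7 neuronal genes in both, but 1 of 5 microglia and blood genes, with Ptprc and Cx3cr1 unmarked, 1 of 5 endothelial genes and 1 of 7 astrocyte and oligodendrocyte genes.

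Kcnk9 (chromosome 15, 72501873 to 72548614 in mm10) had Smchd1 and methylated DNA but no H3K4me3 in the lists. Of the 407 Smchd1 summits at the 5e-4 calling threshold, 3 lay inside Kcnk9 or within 50 kb, and 99.74% of the 21887 annotated protein-coding genes had fewer. One or more such summits were found for 2.07% of coding genes. The same 3 positions made up the count in the looser 5e-3 list, where 6.01% of coding genes had a summit. Kcnk9 was chosen on these summits, so its place among coding genes in both lists describes that choice.

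The 3 Smchd1 summits were spread over the gene and the interval that follows it. One lay inside Kcnk9 at 15:72517201 with a score of 11.6, rank 39 of 407. The next lay at 15:72549581, only 967 bp beyond the upper annotated end, with a score of 5.95 and rank 241. The highest lay at 15:72568728 with a score of 24.0, rank 2 in the list. It stood in the gap of 41005 bp between both genes, 20114 bp from Kcnk9 and 20892 bp from the lower end of Trappc9. Trappc9 therefore counts 2 of the same summits within 50 kb and none inside.

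Ctcf met Smchd1 at the summit inside Kcnk9. The non-silencing list had a Ctcf summit 44 bp away (15:72517245, score 26.3, above 97.81% of its list) and the null list had one 33 bp away (15:72517234, score 16.2, above 94.14%). The untransduced wild-type list had none there, its nearest summit being 292002 bp away at Peg13. Both wild-type lists thus differed from each other at this position, and the null list sided with the non-silencing one. The other 2 Smchd1 summits had no Ctcf summit of any list closer than 32336 bp. One of the 4 Smchd1 summits at the 4 genes thus had wild-type Ctcf within 1 kb, beside 44% of all Smchd1 summits.

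Methylated DNA inside Kcnk9 lay toward the lower end of the gene. The list named WT held 4 MBD summits, at 15:72505565 (score 51.6), 15:72512207 (70.4), 15:72512920 (39.6) and 15:72513466 (8.41). The list named D1 held 3, at 15:72505560 (30.9), 15:72512200 (52.0) and 15:72512918 (22.3), each a few bases from a counterpart. With 50 kb added the counts were 5 and 4, and 24.65% and 24.21% of coding genes had fewer. None coincided with Smchd1: the nearest to a Smchd1 summit was 3735 bp away. H3K4me3 was listed in neither genotype inside Kcnk9 or within 50 kb, whereas 77.2% (wild type) and 77.3% (null) of coding genes had such a summit.

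**Figure D1:**
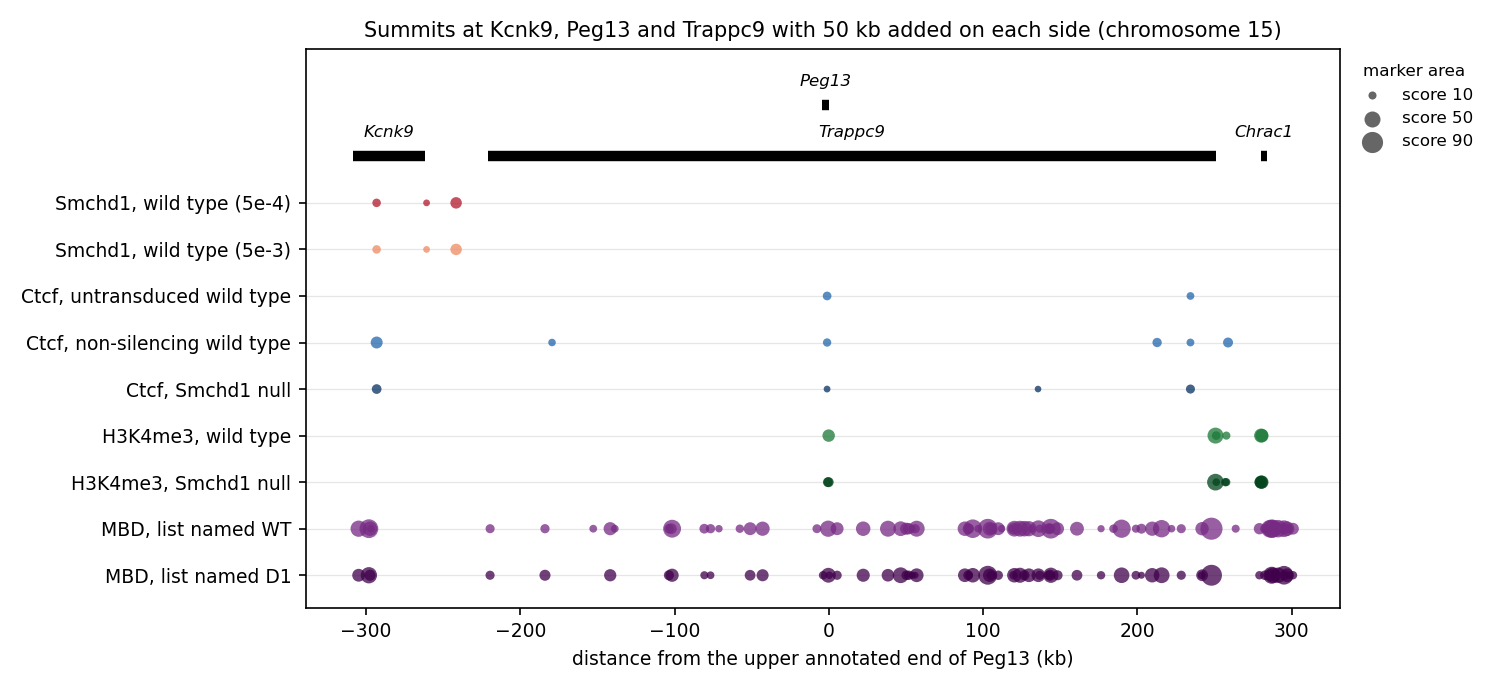
Summits at Kcnk9, Peg13 and Trappc9 in 9 lists (rows), placed by distance in kb from the upper annotated end of Peg13, with marker area growing with the authors' score and black bars for genes. The 3 Smchd1 summits sit at and beside Kcnk9, H3K4me3 sits at Peg13 and at the upper end of Trappc9 and beyond, and MBD summits run through Trappc9.

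Peg13 (15:72805602 to 72810324) held Ctcf, H3K4me3 and methylated DNA within about 1 kb of each other, and no Smchd1. All 3 Ctcf lists had 1 summit inside it: 15:72809203 in untransduced wild-type cells (score 12.3, above 79.39% of its list), 15:72809198 in non-silencing wild-type cells (10.9, above 57.57%) and 15:72809177 in null cells (6.03, above 18.83%). These positions differ by at most 26 bp. A Ctcf summit inside or within 50 kb is common: 53.3% of coding genes had one in the untransduced list, 74.9% in the non-silencing list and 62.7% in the null list.

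H3K4me3 was listed at the upper end of Peg13 in both genotypes. Wild-type cells had 1 summit, 115 bp inside the annotated end (15:72810209, score 28.9). Null cells had 2, at 15:72810181 (17.7) and 15:72809679 (16.2), which lie 28 and 530 bp from the wild-type one. Methylated DNA lay between the Ctcf summits and the wild-type H3K4me3 summit in both MBD lists, at 15:72809886 in the list named WT (51.6) and 15:72810018 in the list named D1 (42.7). Both MBD scores exceeded those of over 85% of their lists. The list named D1 had 2 more, at 15:72806587 inside Peg13 (11.3) and just beyond it at 15:72810656 (8.09). No summit of the other list lay within 1 kb of the former.

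Trappc9 (15:72589620 to 73061238) carried its strongest H3K4me3 at the upper annotated end. Wild-type cells had summits 296 bp inside that end (15:73060942, score 49.9) and 165 bp beyond it (15:73061403, 12.3), and null cells had them at 15:73060915 (54.8) and 15:73061416 (8.59). Within 50 kb beyond the gene both genotypes had H3K4me3 at 15:73067957 (wild type, 10.4) and 15:73067947 (null, 10.2), with a further null summit at 15:73067242 (10.9). Chrac1, a histone-fold subunit gene of a chromatin remodelling complex, lay inside this window, with 2 wild-type summits (top score 38.3) and 3 null ones (33.5).

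Ctcf inside Trappc9 differed between lists apart from 2 shared positions. Besides the Peg13 site, all 3 lists had a summit 16531 to 16542 bp inside the upper end: 15:73044707 (untransduced, score 8.99), 15:73044696 (non-silencing, 9.23) and 15:73044704 (null, 13.6). The non-silencing list alone had summits at 15:72630898 (8.39) and 15:73023096 (above 78.99% of its list) and, beyond the gene, at 15:73069064 (17.2). The null list alone had one at 15:72945906 (5.56, above 12.47% of its list).

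Methylated DNA was dense along Trappc9. Inside the gene the list named WT had 61 MBD summits and the list named D1 had 51, or 12.9 and 10.8 per 100 kb. Among 2429 coding genes of 100 kb or more the medians were 5.47 and 4.29 per 100 kb, and 79.0% and 79.5% of those genes were lower than Trappc9. The summits were uneven along the gene. The part from 300 to 350 kb above the lower end held 15 and 12, and the next 50 kb held 11 and 9. The first 50 kb held 2 in each list and the next 50 kb held 3 and 1. The highest MBD summit of the gene stood 2912 bp inside the upper end, near the H3K4me3 there: 15:73058326 scored 98.7 in the list named WT and 15:73058347 scored 87.9 in the list named D1, above 99.94% and 99.96% of their lists.

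Gm31665, a coding gene model inside Trappc9, had 1 MBD summit of each list inside it or within 2 kb and no summit of any other kind. Ago2, which encodes an Argonaute protein of the small RNA pathway, begins inside the window of Trappc9. Its H3K4me3 (top scores 56.3 in wild-type and 51.3 in null cells) lay outside that window.

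Grb10 (chromosome 11, 11930499 to 12037428) was the one of the 4 genes at which Smchd1, Ctcf, H3K4me3 and methylated DNA were all listed within 1 kb, across genotypes. The Smchd1 summit came from wild-type cells and the Ctcf summit from the null list only, so no single genotype had all of them listed. RefSeq's promoter table on GRCm38.p6, the assembly also called mm10, has 2 transcription starts for Grb10, on the minus strand, and sequences for none of the other 3 genes. Both sequences are shown because the marks fall on or beside one and not the other. Each runs 5′ to 3′ from 250 bases before the start to 50 after it, with every CpG, the target of methylation, in capitals.
Grb10 upper start, chr11:12037371-12037670, minus strand: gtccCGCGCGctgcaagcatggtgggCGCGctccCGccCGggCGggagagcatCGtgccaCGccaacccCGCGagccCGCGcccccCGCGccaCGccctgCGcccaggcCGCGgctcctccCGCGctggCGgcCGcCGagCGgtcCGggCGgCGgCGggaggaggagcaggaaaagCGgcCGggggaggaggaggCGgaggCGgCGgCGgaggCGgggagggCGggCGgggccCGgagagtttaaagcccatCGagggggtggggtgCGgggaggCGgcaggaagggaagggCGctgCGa
Grb10 inner start, chr11:12027922-12028221, minus strand: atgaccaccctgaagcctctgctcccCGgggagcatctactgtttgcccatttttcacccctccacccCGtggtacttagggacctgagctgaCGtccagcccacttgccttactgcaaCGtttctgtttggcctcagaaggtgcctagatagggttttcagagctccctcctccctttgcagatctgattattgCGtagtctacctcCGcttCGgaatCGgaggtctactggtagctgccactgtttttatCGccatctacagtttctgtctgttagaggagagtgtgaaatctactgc

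The upper start is rich in CpG, with 45 in 300 bases, more than 98.1% of 32851 promoters in that table. No summit of any list fell inside it, and the nearest MBD summit was 9399 bp downstream of that start. The inner start holds 9 CpG, against a median of 7.0 over all promoters. Both MBD lists had a summit inside it, 42 bp (11:12028013, list named WT, score 14.6) and 50 bp (11:12028021, list named D1, 12.6) upstream of the start. A search on both strands for CCNNNAGNNGGC, the core of the Ctcf motif, found 0 matches in either sequence. It occurs in 8.61% of all promoters in the table. No Ctcf summit of any list lay in either sequence, so the search does not cover the Ctcf sites of Grb10.

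The site where the lists met lay about 2 kb downstream of the inner start, 11522 bp inside the upper end of the gene. The Smchd1 summit (11:12025906) had a score of 6.61, rank 208 of 407, and the 5e-3 list added a second at 11:12026342 (2.66, above 7.51% of that list). A Ctcf summit of the null list lay 28 bp away, at 11:12025878, with a score of 9.12, above 58.11% of its list. The nearest summit of a wild-type Ctcf list was 52271 bp from the Smchd1 summit. H3K4me3 lay 220 bp away in wild-type cells (11:12026126, score 4.54) and 267 bp away in null cells (11:12026173, 6.98), low in their lists, with 2.51% and 12.32% of summits lower. Methylated DNA lay 63 bp away in the list named WT (11:12025843, score 26.8) and 45 bp away in the list named D1 (11:12025951, 43.6). Together 8 summits of 7 lists fell within 499 bp, the first Smchd1 position being in both Smchd1 lists.

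**Figure D2:**
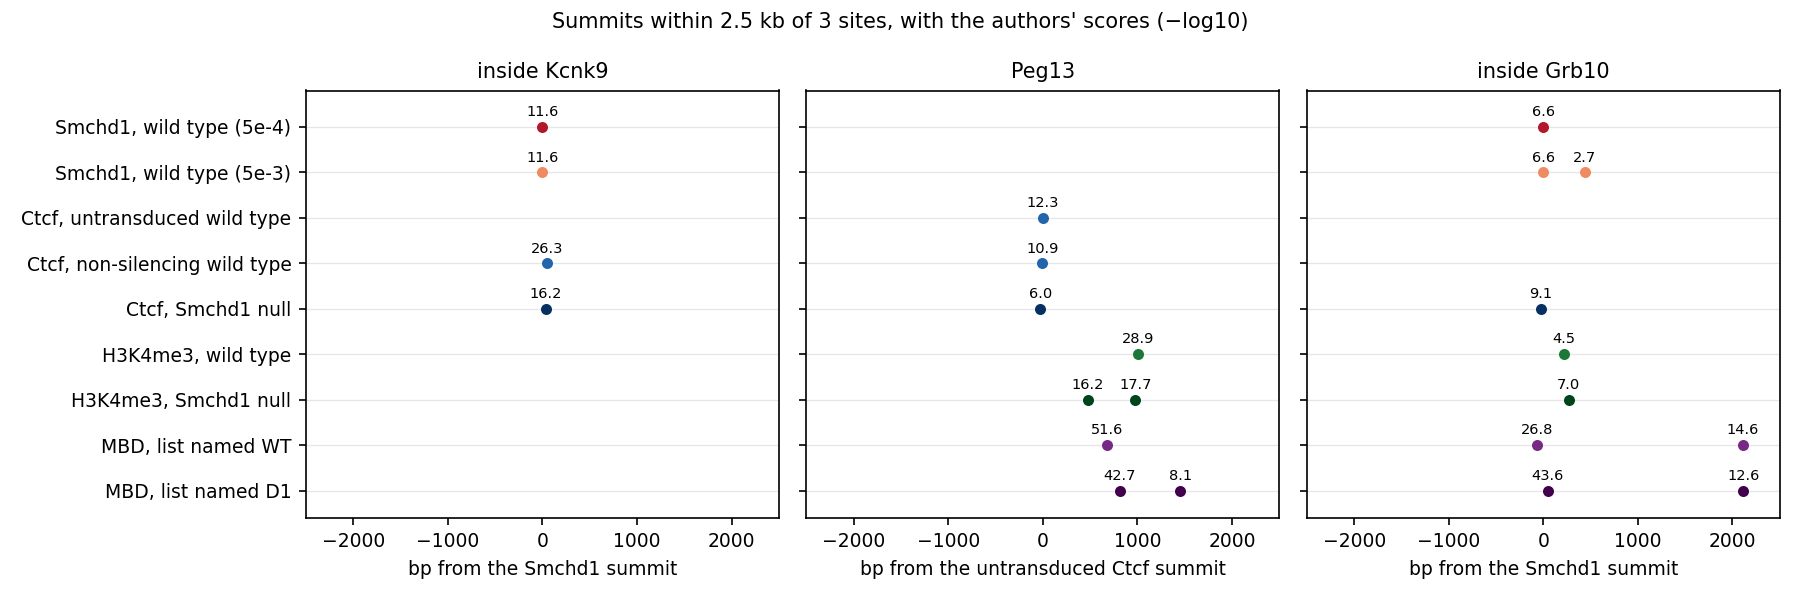
Summits within 2.5 kb of the Smchd1 summit inside Kcnk9, the untransduced Ctcf summit of Peg13 and the Smchd1 summit inside Grb10, by list (rows) and offset in bp, with the authors' score above each point. Within these distances, Ctcf is listed at the Grb10 site in null cells and in neither wild-type list, at the Kcnk9 site in the non-silencing and null lists, and at Peg13 in all 3.

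Elsewhere in Grb10, Ctcf was listed at 1 position in every Ctcf list, 11:11973635 (untransduced, above 88.19% of its list), 11:11973608 (non-silencing, 89.28%) and 11:11973642 (null, 93.74%). The MBD lists each had 8 summits inside the gene, or 7.48 per 100 kb, and 10 with 50 kb added, where 44.65% (WT) and 52.73% (D1) of coding genes had fewer. Their highest differed: 11:11930755 near the lower end in the list named WT (32.5) and the site shared with Smchd1 in the list named D1 (43.6). Ddc, the aromatic amino acid decarboxylase gene next to Grb10, had 3 MBD summits of each list and 1, 2 and 1 Ctcf summits (untransduced, non-silencing, null) inside it or within 2 kb, and no Smchd1.

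**Figure D3:**
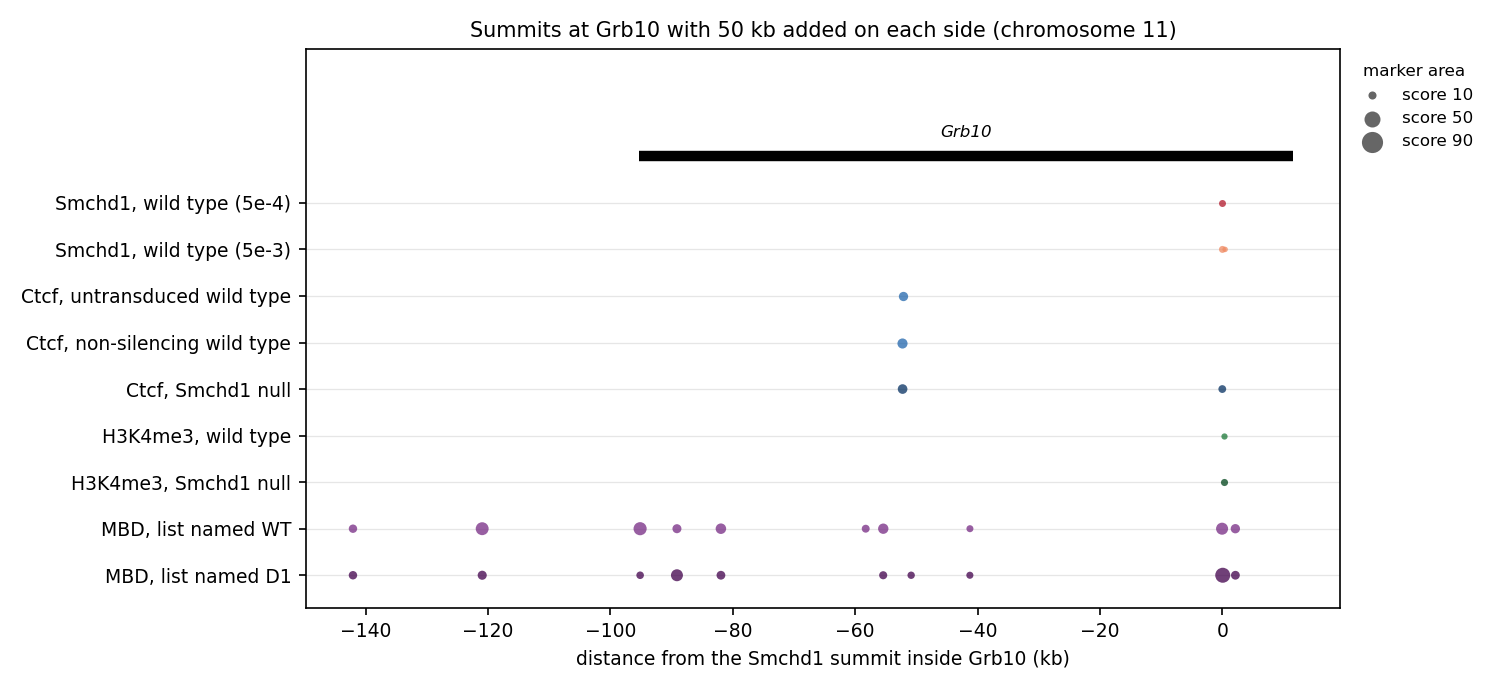
Summits at Grb10 in 9 lists (rows), placed by distance in kb from the Smchd1 summit inside the gene, with marker area growing with the authors' score and a black bar for the gene. The single position with Ctcf in all 3 lists lies about 52 kb below the Smchd1 summit, at which null Ctcf, H3K4me3 of both genotypes and both MBD lists also fall.

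Genotypes were then compared over all windows of the 4 genes together. In H3K4me3, 7 wild-type and 10 null summits were listed, and each had a counterpart of the other genotype within 1 kb. Over the whole lists, 7.39% of wild-type and 7.84% of null summits lacked one. Of 6 null Ctcf summits, 2 had no summit of either wild-type list within 1 kb, the one at Grb10 and the one at 15:72945906 in Trappc9, against 21.2% of the whole null list. Conversely, 0 of 3 untransduced and 3 of 7 non-silencing summits had no null one, against 38.3% and 55.3% of those lists. Both wild-type lists differed from each other about as much here: 4 of the 7 non-silencing summits had no untransduced one, against 64.5% of that list. The Ctcf lists held 20483 (non-silencing), 11920 (null) and 8292 (untransduced) summits. In all 3, the null one included, the control was Ctcf ChIP in wild-type cells given a Ctcf shRNA. A position without a listed summit can therefore still hold Ctcf. With equal numbers of the highest summits in all 3 lists, null summits without a wild-type one went from 2 to 1. Untransduced summits without a null one went from 0 to 1, and non-silencing ones from 3 to 2. Read depth is unknown, and whether it bears on these differences was not tested.

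MBD lists shared most summits at the 4 genes. Of 87 in the list named WT, 12 had none of the other list within 1 kb, with a highest score of 13.1, against 17.5% of that list. Of 75 in the list named D1, 2 had none, at 15:72806587 in Peg13 and 11:11975042 in Grb10 (7.82), against 1.82% of that list. With equal numbers of the highest summits in both lists, 3 were in the list named WT only and 6 in the list named D1 only. That setting removed summits only from the longer list named WT, so the change could go in no other direction. An MBD summit inside or within 50 kb is near universal, with 95.3% and 94% of coding genes having one in the lists named WT and D1. H3K27me3 had 0 summits at the 4 genes in either genotype. It was rare in general, at 2.26% of coding genes in the wild-type list and 0.503% in the null list, by the same 50 kb rule.

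**Figure D4:**
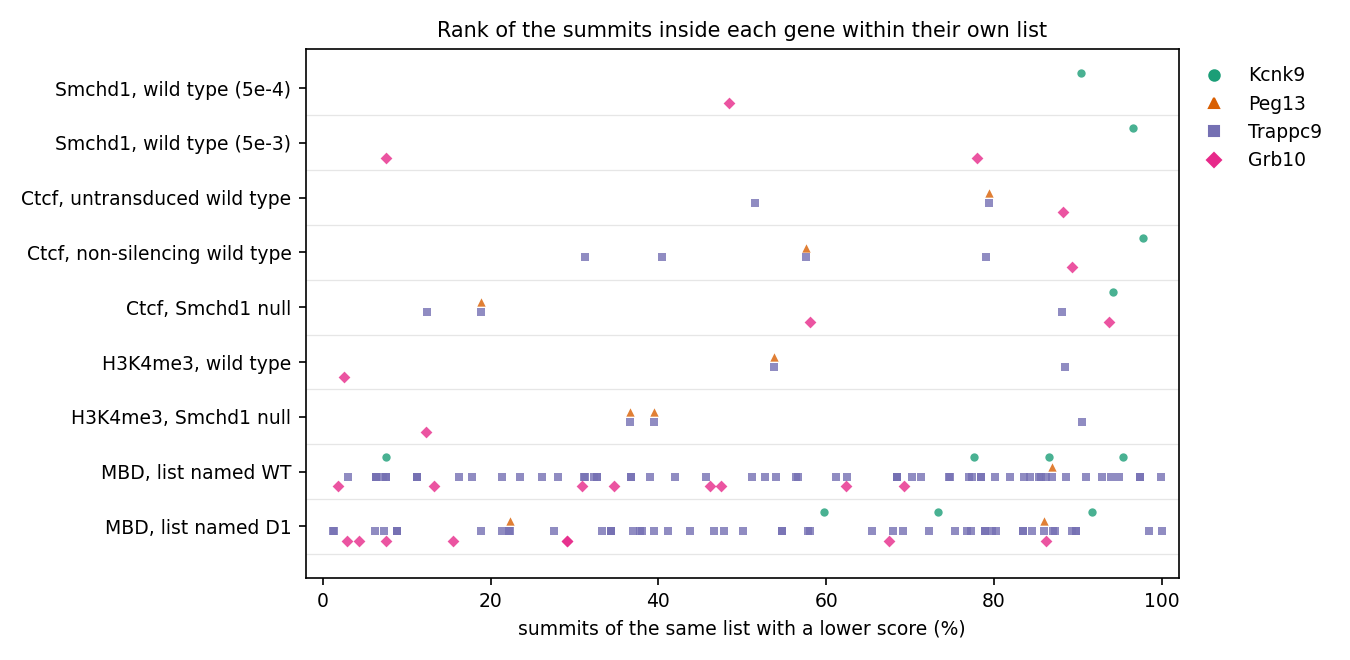
Position of every summit inside each gene within the ranking of its own list, as the percentage of that list with a lower score (Peg13 summits also count for Trappc9, which contains it). Inside Kcnk9, the Smchd1 summit and the Ctcf summits of the non-silencing and null lists rank high, and the untransduced list has none. Kcnk9 was chosen on its Smchd1 summits, of which those outside the gene are not shown. The H3K4me3 summits of Grb10 rank lowest among the H3K4me3 summits shown, with 2.51% and 12.32% of their lists lower.

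H3K4me3 within 1 kb of methylated DNA was less usual. Among 7 wild-type H3K4me3 summits at the 4 genes, those of Peg13 and Grb10 had a summit of both MBD lists within 1 kb, against 3.95% of the whole list. The count rests on that distance, being 0 of 7 within 250 bp and 6 of 7 within 5 kb. Of 10 null ones, 4 did, 2 at Peg13, 1 at Grb10 and 1 at Chrac1 (15:73090231), against 3.98%. The Smchd1 summit of Grb10 was 1 of 5 among 407 (1.23%) with wild-type H3K4me3 and both MBD lists within 1 kb. The other 4 lay in Kcnh1 (score 4.16), in Srsf10 (5.01), in both Vat1l and Gm30272 (6.84) and outside annotated genes (6.37). The last was 33866 bp from Gm36166, the nearest annotated gene. Null Ctcf summits with null H3K4me3 and both MBD lists within 1 kb made up 1.33% of their list and included those of Grb10 and Peg13. With wild-type H3K4me3, 0 of the untransduced and 0 of the non-silencing Ctcf summits at the 4 genes passed, against 1.17% and 0.859% of those lists. At Peg13 this rests on a few bases, since the wild-type H3K4me3 summit lies 1006 bp from the untransduced Ctcf summit.

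The 4 genes were set beside 54 other imprinted genes from a list of 58 annotated ones. A Smchd1 summit of the 5e-4 list lay inside or within 50 kb of 5 of the 54, against 2.07% of all coding genes. They were Snrpn (7 summits, top score 18.4), Ndn (1, 7.85), Magel2 and Mkrn3 (2 each, 8.92), all of 1 cluster, and Cobl (1, 3.56), which lies near Grb10. Of the members, Kcnk9 and Grb10 had such summits by the way they were chosen. Trappc9 had 2, both outside the gene and also counted for Kcnk9, and 0 with 20 kb added. Chrac1 and Ago2, the remaining listed genes beside Trappc9, and Ddc had none. A wild-type H3K4me3 summit with both MBD lists within 1 kb lay inside or within 50 kb of 31 of the 54, including Mest, Peg3, Peg10, Plagl1 and Nnat, and of 3 of the 4 members, against 11.7% of all coding genes. Neighbouring imprinted genes share summits, so these counts are not independent.

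By number of summits over the 11 lists, the coding genes on other chromosomes most like each member were found by Euclidean distance between log2(count + 1). For Kcnk9 they were Zfp640, Tfap2b and Gm19428, at distances of 1.00 to 1.19. For Grb10 they were Mpzl2, Cpne4 and Gm38564, at 0.633 to 0.979, and for Trappc9 they were Aff3, Tenm4 and Atp2b2, at 1.38 to 1.58. Peg13, with no Smchd1, matched Rpp40 exactly (distance 0.0), followed by Exosc7 and Il17f. The counts of a gene grow with its length, which the measure does not correct.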

How the data were processed

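The deposited files used were 11 lists of 1 bp peak summits, with −log10 p-value or q-value scores that the authors made with MACS2. The submitters' processing notes name MACS2 (version 2), CASAVA 1.4 and build mm10. Which of p and q was used, and the aligner, are not given in the sources used here. Lowest scores lay just above 3.301 for lists at a threshold of 5e-4 and above 2.301 for the list at 5e-3. Per the labels, all libraries of a group belong to the same list, so depth and replicate spread cannot be given. What set the length of each list was not tested.

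Positions are 1-based. Gene ends came from RefSeq on GRCm38.p6 (the same assembly as mm10), which gives no exons or strand, and promoter sequences matched 1 of the 4 genes. Summits on unplaced contigs were left out. Counts, nearest distances and shares came from Python 3.11.15 scripts (pandas 2.3.3, numpy 2.4.6; matplotlib 3.10.9 drew the figures). A summit was shared with another list if that list had one within 1 kb. Shares over all coding genes, or over the whole list, are given as background beside the main counts at the 4 genes; no test was made. Counts and distances were tested on simulated data and equalled brute force in 300 of 300 cases. Alternatives varied the distance, threshold, score minimum and list length.

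The members and lists were chosen with earlier results of these data known. Named genes are the 4 members, coding genes overlapping their windows, the gene nearest to each Smchd1 summit there, imprinted genes with a Smchd1 summit within 50 kb and the 3 most alike coding genes per member; Smchd1 sites beside H3K4me3 and MBD, and examples of imprinted genes with H3K4me3 beside MBD, were chosen after their values were seen.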

Additional observations from a re-analysis of the deposited data

How the results depend on the processing

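Each of 60 alternatives over the grouped counts was recomputed, and 47 stayed within 1.5 times of the reported count. The 47 include counts of 0 that stayed 0, for which a ratio has no meaning. With the 5e-3 list, 20 kb or 100 kb added, a score of at least 5, or merged neighbours, Smchd1 summits at the 4 genes numbered 3 to 5 (4 as reported). The number with wild-type Ctcf stayed 1 under each of its 6 alternatives, all of which took both wild-type Ctcf lists together. That match was in the non-silencing list, 44 bp away. The untransduced list alone had no summit closer than 52271 bp to any of the 4. Null H3K4me3 summits without a wild-type one went from 0 to 3 when shared meant within 250 bp (in Peg13, beyond Trappc9 and at Chrac1). They went to 1 at a score of at least 5, where the wild-type summit of Grb10 (4.54) drops out, and to 1 with 100 kb added (11:11856218 in Ddc, score 4.08). With equal numbers of the highest summits in all 3 Ctcf lists, null-only Ctcf went from 2 to 1, the one at Grb10 staying, and untransduced summits without a null one went from 0 to 1, since the null summit at Peg13 drops out. MBD summits in the list named WT only went from 12 to 6 with sharing within 5 kb and to 3 with equal list lengths. Those in the list named D1 only went from 2 to 4 within 250 bp, 0 within 5 kb and 6 with equal lengths. Equal lengths removed summits only from the longer list named WT. Its own count could therefore not rise, and that of the list named D1 could not fall. Among alternatives chosen after seeing the data, wild-type H3K4me3 beside both MBD lists went from 2 to 0 within 250 bp and 6 within 5 kb, and wild-type Ctcf with both MBD lists and wild-type H3K4me3 went from 0 to 2 within 5 kb, both at Peg13. H3K27me3 was 0 at 20 kb and 100 kb. No paired analysis was possible because the lists pool the libraries of each group, and leaving out a replicate was not possible for the same reason.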

Other observations

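Smchd1 summits in the interval between Kcnk9 and Trappc9 had no other mark near them. The one at 15:72568728, rank 2 of 407, lay 22007 bp from the nearest MBD summit, 51483 bp from the nearest Ctcf summit and 240951 bp from the nearest H3K4me3 summit of any list. The one at 15:72549581 lay 32336 bp from Ctcf and 36115 bp from MBD. With their neighbour inside Kcnk9, which has Ctcf within 44 bp, and the summit of Grb10, which has H3K4me3, MBD and null Ctcf within 267 bp, the 4 Smchd1 sites at these genes differ in what lies beside them.

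Ago2, farther along from Trappc9, had 20 and 15 MBD summits (lists named WT and D1) inside it or within 2 kb, with top scores of 87.7 and 69.5. Ctcf was listed once there in untransduced (score 8.01), non-silencing (5.51) and null cells (9.31).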
